A study of Mus musculus with 2 samples.

Results

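Neurexins are presynaptic adhesion proteins. The 9 genes described here are the neurexin genes *Nrxn2* and *Nrxn3*, the neurexophilin genes *Nxph1*, *Nxph2* and *Nxph4*, the cerebellin genes *Cbln1*, *Cbln2* and *Cbln4*, and the calsyntenin gene *Clstn2*, which encode partners of neurexins other than neuroligins. They were chosen by symbol, and all 9 were found among the 32285 genes of the count tables. Single cell RNA sequencing (scRNA-seq) counted unique molecular identifiers (UMIs), each marking 1 captured RNA molecule, in dissociated dorsal telencephalon at E14.5. There were 2 libraries, called replicates 1 and 3 after their labels, both of wild-type (WT) genotype. They came from control embryos of the *Eomes*-Cre mouse line (EomesMllt3 control) on a C57BL/6 J background, untreated, so no genotypes were compared. Whether these embryos carried Cre, and how many were pooled in a sample, was not given in the sources used here. The cells were used to ask how cortical interneurons (cINs) expressing somatostatin could signal to the progenitors of the cortex, the radial glia (RGCs) and the intermediate progenitors (IPCs).

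A neurexin on an axon reaches across the synaptic cleft to partners that differ with its isoform. Neurexophilins are secreted glycoproteins that bind the long neurexin forms. Cerebellins are secreted proteins that bridge neurexins to delta-type glutamate receptors, and calsyntenins are membrane proteins of the cadherin superfamily found at synapses. Since UMIs were read at the 3′ ends of transcripts, long and short neurexin forms and their splice variants cannot be told apart, and levels are compared within a gene, not between genes.

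RefSeq promoter windows on GRCm38.p6 (mm10), from 250 bases before to 50 after a start site, were held for 5 of the 9 genes. The windows of *Nxph1* (chr6:8949769-8950068, plus strand), *Nxph2* (chr2:23320996-23321295, plus strand) and *Clstn2* (chr9:98033118-98033417, minus strand) are shown because the first pair of genes had their highest levels in the same interneuron class and *Clstn2* was low there. Capitals mark matches on either strand to the palindrome TGACGTCA, the E-box CANNTG, the motif CCAAT or the homeodomain core TAATTA, and no matches in these 3 windows overlapped.

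Nxph1: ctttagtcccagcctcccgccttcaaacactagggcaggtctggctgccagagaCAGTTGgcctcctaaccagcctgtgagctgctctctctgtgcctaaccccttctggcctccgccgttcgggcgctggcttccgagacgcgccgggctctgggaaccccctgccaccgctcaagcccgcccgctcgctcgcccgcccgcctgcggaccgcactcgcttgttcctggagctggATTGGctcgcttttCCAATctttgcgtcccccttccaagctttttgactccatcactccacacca
Nxph2: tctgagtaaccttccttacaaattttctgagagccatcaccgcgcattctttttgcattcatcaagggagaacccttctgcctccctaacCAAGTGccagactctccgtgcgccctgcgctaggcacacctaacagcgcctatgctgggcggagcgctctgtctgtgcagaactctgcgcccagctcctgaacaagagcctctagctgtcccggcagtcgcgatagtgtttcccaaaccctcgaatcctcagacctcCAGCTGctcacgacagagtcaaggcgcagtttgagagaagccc
Clstn2: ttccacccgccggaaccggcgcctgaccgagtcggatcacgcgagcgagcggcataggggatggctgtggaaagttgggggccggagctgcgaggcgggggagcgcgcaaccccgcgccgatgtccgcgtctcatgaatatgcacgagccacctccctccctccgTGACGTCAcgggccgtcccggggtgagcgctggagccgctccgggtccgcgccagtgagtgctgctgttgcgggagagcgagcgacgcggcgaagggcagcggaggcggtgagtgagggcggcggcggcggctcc

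CANNTG matched 1 time in the *Nxph1* window and 2 times in the *Nxph2* window, and 72.3% of all 32851 windows held it. CCAAT matched 2 times in the *Nxph1* window, with 37.4% of all windows holding it. TGACGTCA matched 1 time in the *Clstn2* window, with 1.79% of all windows holding it. TAATTA, held by 5.29% of all windows, was in none of these 3. A match describes the letters of a window and is not evidence of binding.

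The genes lie at separate loci (GRCm38.p6, RefSeq spans). *Nrxn2* (ENSMUSG00000033768) spans 6418756 to 6533217 of chromosome 19, and *Nrxn3* (ENSMUSG00000066392), with 3 start sites in the promoter table, spans 88722701 to 90334935 of chromosome 12. *Nxph1* (ENSMUSG00000046178) lies on chromosome 6 from 8948614 to 9249619, *Nxph2* (ENSMUSG00000069132) on chromosome 2 from 23321246 to 23401986, and *Nxph4* (ENSMUSG00000040258) on chromosome 10 from 127525473 to 127534559. *Cbln1* (ENSMUSG00000031654) lies on chromosome 8 from 87468853 to 87472592, *Cbln4* (ENSMUSG00000067578) on chromosome 2 from 172036336 to 172043466, and *Clstn2* (ENSMUSG00000032452) on chromosome 9 from 97444395 to 98033373. *Cbln2* has the identifier ENSMUSG00000024647.

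The libraries held 6163 and 8870 barcodes with 64182006 and 93295807 UMIs, and shared 23 barcodes. After filtering, 5149 and 6854 cells were kept in 26 clusters. Cell classes were named "-like" from marker genes, and the 9 genes were neither clustering genes nor markers. They could still take places among the 10 leading genes of a cluster, which also entered the naming. There were 717 and 1588 RGC-like, 426 and 744 IPC-like, 2671 and 3083 projection neuron-like and 36 and 77 Cajal-Retzius-like cells in replicates 1 and 3. GABAergic cells made up 15.1% of replicate 1 and 3.57% of replicate 3, with 333 and 218 medial ganglionic eminence (MGE) interneuron-like, 326 and 27 caudal ganglionic eminence (CGE) interneuron-like and 117 and 0 lateral ganglionic eminence (LGE) neuron-like cells. The CGE interneuron-like cluster had 5 of 7 CGE and 4 of 8 MGE markers on, enough for either name, and took the name with the larger share. The projection neuron-like cells were divided by markers into 610 and 1011 newborn, 465 and 543 upper-layer, 662 and 825 corticofugal and 934 and 704 other cells. The newborn name rested on the leading genes, since in both newborn clusters more upper-layer than newborn markers were on: 5 of 8 newborn and 7 of 8 upper-layer markers in cluster 1 and 5 of 8 and 6 of 8 in cluster 10, with 1 and 3 newborn and 0 and 0 upper-layer markers among their 10 leading genes. No cluster met the rule for subplate-like, and 1 cluster of 268 and 585 cells, led by *Slc17a6*, *Mfap4* and *Eomes*, stayed unnamed.

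Levels are counts per 1000000 UMIs (CPM) of all cells of a class summed within a replicate, given for replicate 1 and then replicate 3. Differences are log2 fold changes ± SE from the quasi-likelihood test of edgeR on these sums, with p-values adjusted by Benjamini-Hochberg over all genes tested and a threshold of 0.05. Each p-value rests on a spread that all classes of a fit share. It was taken from sums of the same 2 samples, treated as independent. The labels do not state whether the 2 samples came from separate litters, and their titles share a number whose meaning was not given. Shares of cells with a UMI were taken after thinning every cell to 3000 UMIs, and where an interval is given it is the 95% Wilson interval, which covers counting error only. Thinning left out 22 and 39 RGC-like, 4 and 36 IPC-like, 76 and 149 projection neuron-like, 1 and 3 Cajal-Retzius-like, 68 and 62 MGE interneuron-like, 57 and 9 CGE interneuron-like and 18 and 46 red blood cell-like cells of lower depth, and unthinned shares are given in parentheses.

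**Figure D1:**
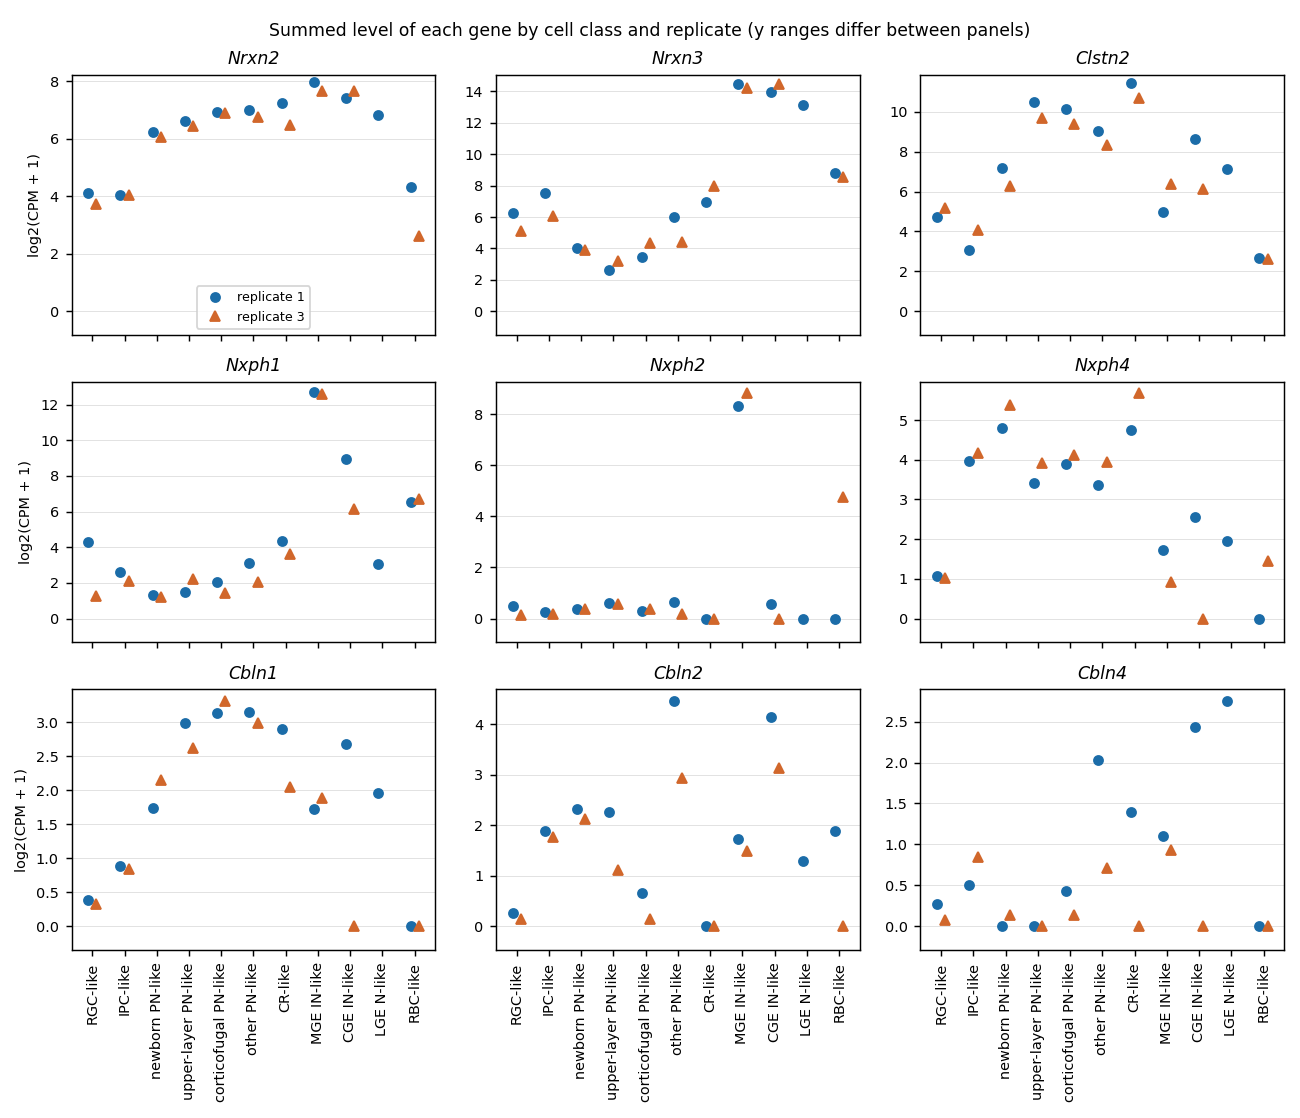
Summed level of each gene, as log2(CPM + 1), by cell class, with 1 point per replicate. PN, CR, IN, N and RBC stand for projection neuron, Cajal-Retzius, interneuron, neuron and red blood cell, and LGE neuron-like cells were found in replicate 1. *Nrxn3*, *Nxph1* and *Nxph2* stand out in MGE interneuron-like cells, at 22902 and 19409 CPM, 6663 and 6149 CPM and 321 and 450.0 CPM, and *Clstn2* in Cajal-Retzius-like cells, at 2752 and 1635 CPM.

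*Nrxn3* separated GABAergic neurons from all other classes. MGE interneuron-like cells held 22902 and 19409 CPM, CGE interneuron-like cells 15746 and 22318 CPM and LGE neuron-like cells 9121 CPM in replicate 1. MGE and CGE interneuron-like cells overlapped and did not differ beyond their spread (0.28 ± 0.48, adjusted p = 0.85), and neither did MGE interneuron-like and LGE neuron-like cells (1.26 ± 0.63, adjusted p = 0.364), with 1 sum on the LGE side. After thinning, 100% and 100% (unthinned 100% and 100%) of MGE interneuron-like cells and 93.3% and 100% (unthinned 95.4% and 100%) of CGE interneuron-like cells had a *Nrxn3* UMI.

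Outside these classes *Nrxn3* levels were lower by orders of magnitude. IPC-like cells held 181 and 67.01 CPM, RGC-like cells 75.2 and 33.6 CPM, Cajal-Retzius-like cells 121 and 247 CPM and projection neuron-like cells 27.6 and 15.8 CPM. Red blood cell-like cells, which should lack the gene, held 440.3 and 371 CPM, more than any of these 4 classes. A small number of cells carried many of these counts. In replicate 1, 22 of 426 cells held 582 of 865 UMIs in IPC-like and 15 of 717 cells held 290 of 739 UMIs in RGC-like cells, while in red blood cell-like cells 2 of 67 cells held 157 of 162 UMIs in replicate 1 and 1 of 109 cells held 206 of 214 UMIs in replicate 3. The share of cells with a UMI was 17.5% and 10.2% (unthinned 26.8% and 18.4%) in IPC-like, 10.8% and 6.91% (unthinned 23.4% and 16.6%) in RGC-like and 8.16% and 6.35% (unthinned 10.4% and 7.34%) in red blood cell-like cells, so the RGC-like share lay near that background. Before thinning, median depths were 10629 and 9963 UMIs in IPC-like, 12899 and 11845 in RGC-like and 4881 and 3685 in red blood cell-like cells.

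The summed level of 7 GABAergic markers (*Gad1*, *Gad2*, *Dlx1*, *Dlx2*, *Dlx5*, *Dlx6os1* and *Slc32a1*) also differed between replicates in the same classes. IPC-like cells held 49.3 and 10.1 CPM of these markers, RGC-like cells 15.8 and 4.03 CPM, projection neuron-like cells 11.7 and 3.89 CPM and red blood cell-like cells 54.4 and 48.6 CPM, against 2575 and 2508 CPM for MGE interneuron-like cells. All 7 markers were above 0 in the IPC-like, RGC-like and projection neuron-like sums. Their part in the *Nrxn3* levels of these classes was not tested.

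*Nrxn2* was spread over all neurons. MGE interneuron-like cells held 250.1 and 201 CPM, CGE interneuron-like cells 172 and 203 CPM, Cajal-Retzius-like cells 152 and 87.7 CPM and projection neuron-like cells 109.6 and 94.5 CPM. RGC-like cells held 16.3 and 12.2 CPM and IPC-like cells 15.5 and 15.4 CPM, near the 19.03 and 5.20 CPM of red blood cell-like cells. No sum of a neuronal class overlapped the progenitor-like sums. Within neurons, MGE did not differ beyond its spread from CGE interneuron-like cells (0.46 ± 0.24, adjusted p = 0.379), nor Cajal-Retzius-like from projection neuron-like cells (0.03 ± 0.23, adjusted p = 0.935). The share of cells with a UMI was 50.9% and 39.1% (unthinned 66.97% and 57.3%) in MGE interneuron-like, 27.2% and 22.7% (unthinned 63.4% and 55.8%) in projection neuron-like and 4.17% and 4.45% (unthinned 18.7% and 13.4%) in RGC-like cells.

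Among the secreted neurexophilins, *Nxph1* distinguished classes that shared a high *Nrxn3* level. MGE interneuron-like cells held 6663 and 6149 CPM, CGE interneuron-like cells 487 and 70.1 CPM and LGE neuron-like cells 7.20 CPM in replicate 1. In CGE interneuron-like cells of replicate 1, 26 of 326 cells held 831 of 995 UMIs. In RGC-like (18.7 and 1.44 CPM), IPC-like (5.02 and 3.31 CPM), projection neuron-like (4.09 and 2.30 CPM) and Cajal-Retzius-like cells (19.4 and 11.5 CPM) it lay below the 92.4 and 104 CPM of red blood cell-like cells. There, 1 of 67 cells held 32 of 34 UMIs in replicate 1 and 1 of 109 cells held 60 of 60 UMIs in replicate 3. Before thinning, 3 of 67 and 1 of 109 red blood cell-like cells had a UMI, against 5 of 36 and 8 of 77 Cajal-Retzius-like cells. So did 33 of 717 and 25 of 1588 RGC-like, 14 of 426 and 15 of 744 IPC-like and 51 of 2671 and 43 of 3083 projection neuron-like cells.

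*Nxph2* was found in MGE interneuron-like cells, at 321 and 450.0 CPM from 560 and 499 UMIs. CGE interneuron-like sums held 1 and 0 UMIs, LGE neuron-like and Cajal-Retzius-like sums held 0, and projection neuron-like sums held 13 and 10 UMIs (0.419 and 0.295 CPM). Outside MGE interneuron-like cells the highest levels were 0 and 26.01 CPM in red blood cell-like cells, where 1 cell of replicate 3 held 15 UMIs, and 7.01 and 0 CPM in meningeal-like cells. Over both replicates MGE exceeded CGE interneuron-like cells by a ratio of 805 (95% exact counting interval 144 to 31839). Against Cajal-Retzius-like cells the mean level of both replicates was at least 202-fold higher, with 3 counts over both class sums as the floor. In replicate 1 the level was at least 74.2-fold higher than in LGE neuron-like cells, with 3 counts over the class as the floor.

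*Nxph1* and *Nxph2* were also counted in single cells. After thinning, *Nxph1* had a UMI in 96.98% (94.2 to 98.5) and 100% (97.6 to 100) and *Nxph2* in 42.3% (36.5 to 48.3) and 52.6% (44.8 to 60.2) of MGE interneuron-like cells. Without thinning the shares were 97.00% and 98.6% for *Nxph1* and 50.2% and 52.8% for *Nxph2*. In replicate 1, 109 of 265 cells had both, 148 had *Nxph1* alone and 3 had *Nxph2* alone. In replicate 3, 82 of 156 cells had both, 74 had *Nxph1* alone and 0 had *Nxph2* alone. Since nearly all cells had *Nxph1*, these counts cannot show whether the genes occurred together beyond their separate shares. A cell at 0 UMIs at this depth may still hold the transcript. In red blood cell-like cells the shares were 2.04% and 1.59% (unthinned 4.48% and 0.917%) for *Nxph1* and 0% and 1.59% (unthinned 0% and 0.917%) for *Nxph2*, with median depths before thinning of 4881 and 3685 UMIs against 4519 and 4018.5 in MGE interneuron-like cells.

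**Figure D2:**
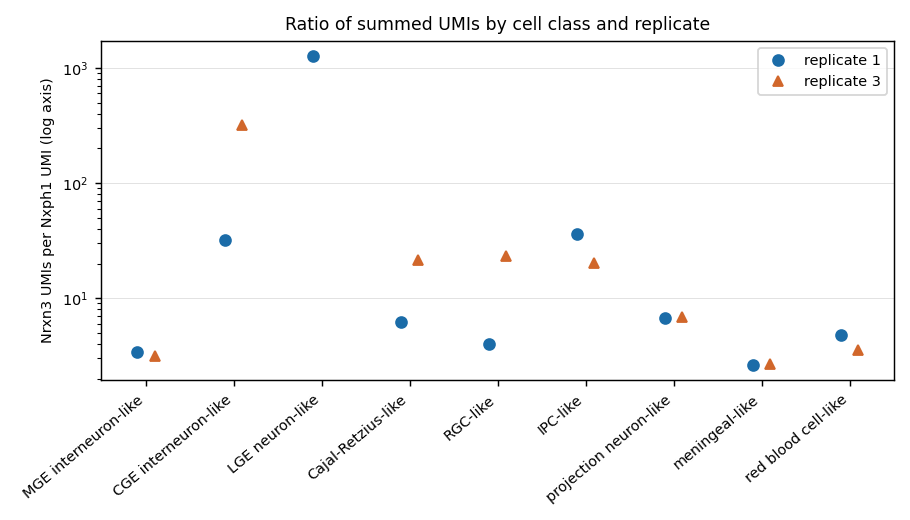
*Nrxn3* UMIs per *Nxph1* UMI in the summed cells of each class, on a log axis, with 1 point per replicate. MGE interneuron-like cells stand at 3.44 and 3.16, CGE interneuron-like cells at 32.3 and 318 and LGE neuron-like cells at 1266 in replicate 1.

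The number of *Nrxn3* UMIs per *Nxph1* UMI was 3.44 and 3.16 in MGE, 32.3 and 318 in CGE interneuron-like and 1266 in LGE neuron-like cells, the CGE and LGE values resting on 995 and 9 and 5 *Nxph1* UMIs. Meningeal-like (2.65 and 2.67) and red blood cell-like cells (4.76 and 3.57) had ratios close to those of MGE interneuron-like cells, from 37 and 3 and 34 and 60 *Nxph1* UMIs. These ratios rested on few cells. In meningeal-like replicate 1, 1 of 48 cells held 36 of 37 *Nxph1* UMIs and 1 held 89 of 98 *Nrxn3* UMIs. In red blood cell-like cells, 1 cell held 32 of 34 *Nxph1* UMIs in replicate 1 and 1 held 60 of 60 in replicate 3. Projection neuron-like cells gave 6.76 and 6.88 and IPC-like cells 36.04 and 20.2. RGC-like cells gave 4.02 and 23.2 and Cajal-Retzius-like cells 6.25 and 21.5, so these differed several-fold between replicates.

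*Nxph4* had another distribution, with its highest mean level in the unnamed cluster. The unnamed cluster held 49.5 and 60.8 CPM, newborn cluster 10 (led by *Unc5d*, *Cdh8* and *Sema3c*) held 42.9 and 50.8 CPM and Cajal-Retzius-like cells held 25.9 and 50.1 CPM. These overlapped. IPC-like cells held 14.6 and 17.1 CPM and upper-layer and corticofugal cells 9.63 and 14.3 CPM and 13.95 and 16.4 CPM, while RGC-like cells held 1.12 and 1.05 CPM and MGE interneuron-like cells 2.29 and 0.902 CPM. The share of cells with a UMI was 9.70% and 15.5% (unthinned 38.1% and 39.8%) in the unnamed cluster and 0.719% and 0.258% (unthinned 1.53% and 1.32%) in RGC-like cells, against 0% and 1.59% (unthinned 0% and 0.917%) in red blood cell-like cells.

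The cerebellin genes were sparse. *Cbln1*, best known from cerebellar granule cells, held 7.78 and 8.98 CPM in corticofugal cells from 68 and 92 UMIs, 2.32 and 3.46 CPM in newborn cells and 0.305 and 0.249 CPM in RGC-like cells. The share of corticofugal cells with a UMI was 2.89% and 3.14% (unthinned 9.52% and 9.70%), beside 0% of red blood cell-like but 0% and 5.26% (unthinned 0% and 3.92%) of endothelial-like cells. *Cbln2* was highest in projection neuron-like cluster 12 (led by *Tafa1*, *Tfap2d* and *Tafa2*), at 49.8 and 27.3 CPM, and in cluster 15 (*Kcnq5* and *Rorb* among its leading genes), at 17.99 and 21.5 CPM. Corticofugal cells held 0.572 and 0.0976 CPM, and Cajal-Retzius-like cells held 0 UMIs, which allows up to 1.91 CPM over both replicates. *Cbln4* had 35 and 7 UMIs in all projection neuron-like cells and 9 and 0 in CGE interneuron-like cells.

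Among neuronal and progenitor-like classes, *Clstn2* was highest in Cajal-Retzius-like, upper-layer and corticofugal cells. Not all glutamatergic clusters were high, since newborn cluster 10 held 10.96 and 20.3 CPM. Pericyte-like cells, described below, held a mean of 913 CPM. Cajal-Retzius-like cells held 2752 and 1635 CPM, upper-layer cells 1425 and 835 CPM, corticofugal cells 1108 and 671 CPM and newborn cells 142 and 76.5 CPM. MGE interneuron-like cells held 30.3 and 82.1 CPM, RGC-like cells 25.9 and 35.3 CPM, IPC-like cells 7.32 and 16.02 CPM and red blood cell-like cells 5.44 and 5.20 CPM. Replicate 1 was higher than replicate 3 in the Cajal-Retzius-like, upper-layer, corticofugal and newborn sums, and replicate 3 was higher in RGC-like, IPC-like and MGE interneuron-like cells. CGE interneuron-like cells held 399.8 and 70.1 CPM, and in replicate 1 22 of 326 cells held 535 of 817 UMIs. The share of cells with a UMI was 91.4% and 67.6% (unthinned 100% and 79.2%) in Cajal-Retzius-like, 49.7% and 38.3% (unthinned 60.1% and 52.4%) in projection neuron-like, 6.04% and 11.5% (unthinned 9.61% and 15.6%) in MGE interneuron-like and 2.04% and 3.17% (unthinned 2.99% and 2.75%) in red blood cell-like cells.

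The first comparison set MGE interneuron-like against projection neuron-like cells, without the other GABAergic classes or Cajal-Retzius-like cells on either side. Here 4 of the 9 genes were higher and 3 lower in MGE interneuron-like cells, where 30.6% of all genes tested were called, 12.6% higher and 17.9% lower. Higher were *Nxph1* (10.76 ± 1.13, adjusted p = 3.17e-05), *Nrxn3* (9.80 ± 0.71, adjusted p = 1.47e-06), *Nxph2* (9.25 ± 0.26, adjusted p = 4.39e-09) and *Nrxn2* (1.04 ± 0.21, adjusted p = 0.00304). Lower were *Clstn2* (-3.60 ± 0.62, adjusted p = 0.00121), *Nxph4* (-3.34 ± 0.54, adjusted p = 0.000785) and *Cbln1* (-1.40 ± 0.44, adjusted p = 0.032, 0.0153 to 0.19 over the alternatives). *Cbln2* (-1.45 ± 0.76, adjusted p = 0.175) and *Cbln4* (0.43 ± 1.03, adjusted p = 0.787) did not pass. Without replicate 1 *Clstn2* was at -2.58 and *Nxph4* at -4.50, and without replicate 3 at -4.70 and -2.56. The *Cbln1* call was lost in DESeq2 (adjusted p = 0.156), with the stricter cell filter (adjusted p = 0.19), at clustering resolution 1.5 (adjusted p = 0.106) and with the unnamed cluster counted as projection neuron-like (adjusted p = 0.0575). Of all calls, 41.4% were higher, and 51.9% with library sizes in place of TMM factors, which moved the median of all genes by 0.11.

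**Figure D3:**
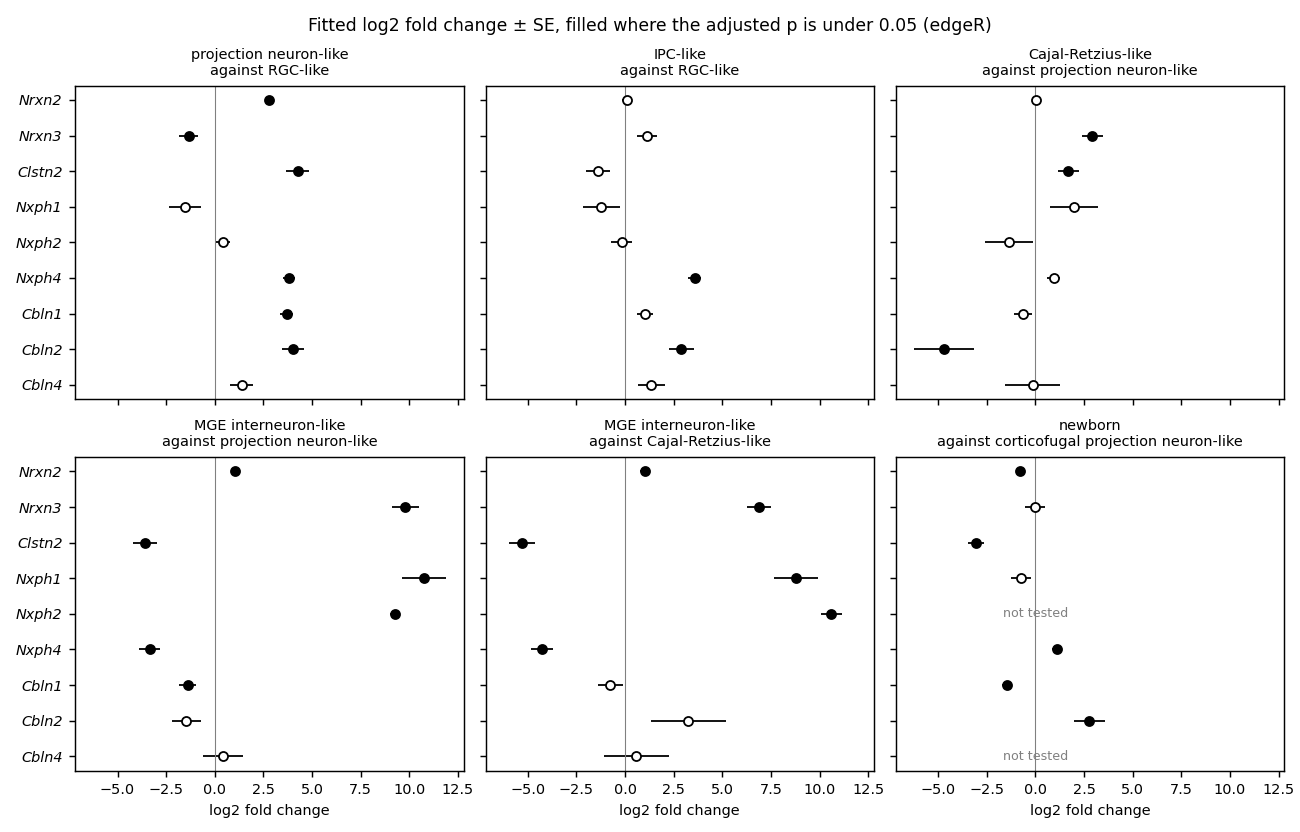
Fitted log2 fold change ± SE of each gene in 6 comparisons of summed cells, with 2 sums a class, filled where the adjusted p was under 0.05. In MGE interneuron-like against projection neuron-like cells *Nxph1* (10.76), *Nrxn3* (9.80) and *Nxph2* (9.25) lie farthest right and *Clstn2* (-3.60) farthest left. Values against a class at 0 UMIs depend on the prior count and are no bound.

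Among GABAergic classes, MGE and CGE interneuron-like cells were compared next. In MGE interneuron-like cells 2 of the 9 genes were higher and 0 lower, where 4.93% of all genes tested were called, 1.44% higher and 3.49% lower. *Nxph2* was higher (adjusted p = 4.87e-06, with its counts given above), as was *Nxph1* (4.38 ± 0.87, adjusted p = 0.0124, 1.15e-57 to 0.0977 over the alternatives). The *Nxph1* value was 6.57 without replicate 1 and 3.94 without replicate 3, and its call was lost with the stricter cell filter (adjusted p = 0.0536) and at resolution 1.5 (adjusted p = 0.0977). *Clstn2* (-2.29 ± 0.63, adjusted p = 0.0611, 5.57e-18 to 0.198 over the alternatives) and *Cbln2* (-2.65 ± 0.83, adjusted p = 0.11, 0.000162 to 0.996 over the alternatives) did not pass, and *Cbln2* did with the replicate as a block (-2.39, adjusted p = 0.0493). The direction of *Clstn2* rested on replicate 1, with a log2 value of 0.35 without it and -3.54 without replicate 3. Replicate 3 had 27 CGE interneuron-like cells. Library sizes in place of TMM factors moved the median of all genes by -0.11, and *Clstn2* then passed (-2.39, adjusted p = 0.0467).

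Against the single LGE neuron-like sum, which has no replicate and whose spread was assumed to be that of the other classes, so that its p-values rest on that assumption, 2 of the 9 genes were higher and 0 lower, where 3.86% of all genes tested were called, 1.78% higher and 2.08% lower. These were *Nxph2* (adjusted p = 1.87e-05) and *Nxph1* (9.79 ± 1.72, adjusted p = 0.00605, 2.09e-75 to 0.0662 over the alternatives), the latter lost at resolution 1.5 (adjusted p = 0.0662). *Nrxn2* did not pass (1.04 ± 0.31, adjusted p = 0.0967, 0.00306 to 0.314 over the alternatives) except with the replicate as a block (1.17, adjusted p = 0.0186) and with no filter on low counts (adjusted p = 0.00306).

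Along the excitatory lineage, projection neuron-like cells were compared with RGC-like cells. Here 5 of the 9 genes were higher and 1 lower in projection neuron-like cells, where 60.6% of all genes tested were called, 24.9% higher and 35.7% lower. Higher were *Clstn2* (4.26 ± 0.61, adjusted p = 6.68e-05), *Cbln2* (4.02 ± 0.57, adjusted p = 9.10e-05), *Nxph4* (3.81 ± 0.32, adjusted p = 6.72e-07), *Cbln1* (3.71 ± 0.33, adjusted p = 1.25e-06) and *Nrxn2* (2.81 ± 0.22, adjusted p = 4.00e-07). *Clstn2* and *Cbln2* were at 3.60 and 3.32 without replicate 1 and at 4.9997 and 4.31 without replicate 3. The *Cbln2* level differed between subtypes, with means of 13.9 CPM in other, 3.69 CPM in newborn and 2.49 CPM in upper-layer cells. Corticofugal cells, at a mean of 0.335 CPM from 5 and 1 UMIs, lay near RGC-like cells, at 0.152 CPM from 2 and 2 UMIs. *Cbln4* missed the threshold (1.40 ± 0.59, adjusted p = 0.0574, 0.00387 to 0.105 over the alternatives) and passed with the replicate as a block (1.21, adjusted p = 0.049).

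*Nrxn3* was the gene that fell (-1.33 ± 0.50, adjusted p = 0.035, 5.28e-05 to 0.543 over the alternatives), but its direction depended on the cells. With predicted doublets kept it turned (0.37, adjusted p = 0.543). The call was lost with the stricter cell filter (adjusted p = 0.0584), at resolutions 0.6 (adjusted p = 0.1) and 1.5 (adjusted p = 0.206) and with the CGE and LGE sums left out of the fit (adjusted p = 0.0882).

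From RGC-like to IPC-like cells 2 of the 9 genes were higher and 0 lower, where 29.6% of all genes tested were called, 10.6% higher and 19% lower. These were *Nxph4* (3.59 ± 0.34, adjusted p = 1.38e-05) and *Cbln2* (2.89 ± 0.63, adjusted p = 0.00554), both higher in 2 of 2 replicates. *Cbln2* had 2 and 2 UMIs in RGC-like and 13 and 18 in IPC-like cells. *Nrxn3* (1.13 ± 0.50, adjusted p = 0.111, 3.24e-06 to 0.397 over the alternatives), *Clstn2* (-1.39 ± 0.59, adjusted p = 0.101, 1.65e-06 to 0.322 over the alternatives), *Cbln1* (1.03 ± 0.41, adjusted p = 0.0815, 0.0435 to 0.197 over the alternatives) and *Nrxn2* (0.08 ± 0.24, adjusted p = 0.854, 0.00612 to 0.927 over the alternatives) did not pass. *Nrxn2* did with the unnamed cluster, at 46.7 and 44.6 CPM, counted as IPC-like (0.92, adjusted p = 0.00612). *Cbln1* passed at resolution 0.6 (1.16, adjusted p = 0.0435) and with the CGE and LGE sums left out (1.17, adjusted p = 0.0489), and with no filter on low counts *Nrxn3* (1.24, adjusted p = 3.24e-06), *Clstn2* (-1.28, adjusted p = 1.65e-06) and *Nxph1* (-1.11, adjusted p = 0.00224) passed.

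**Figure D4:**
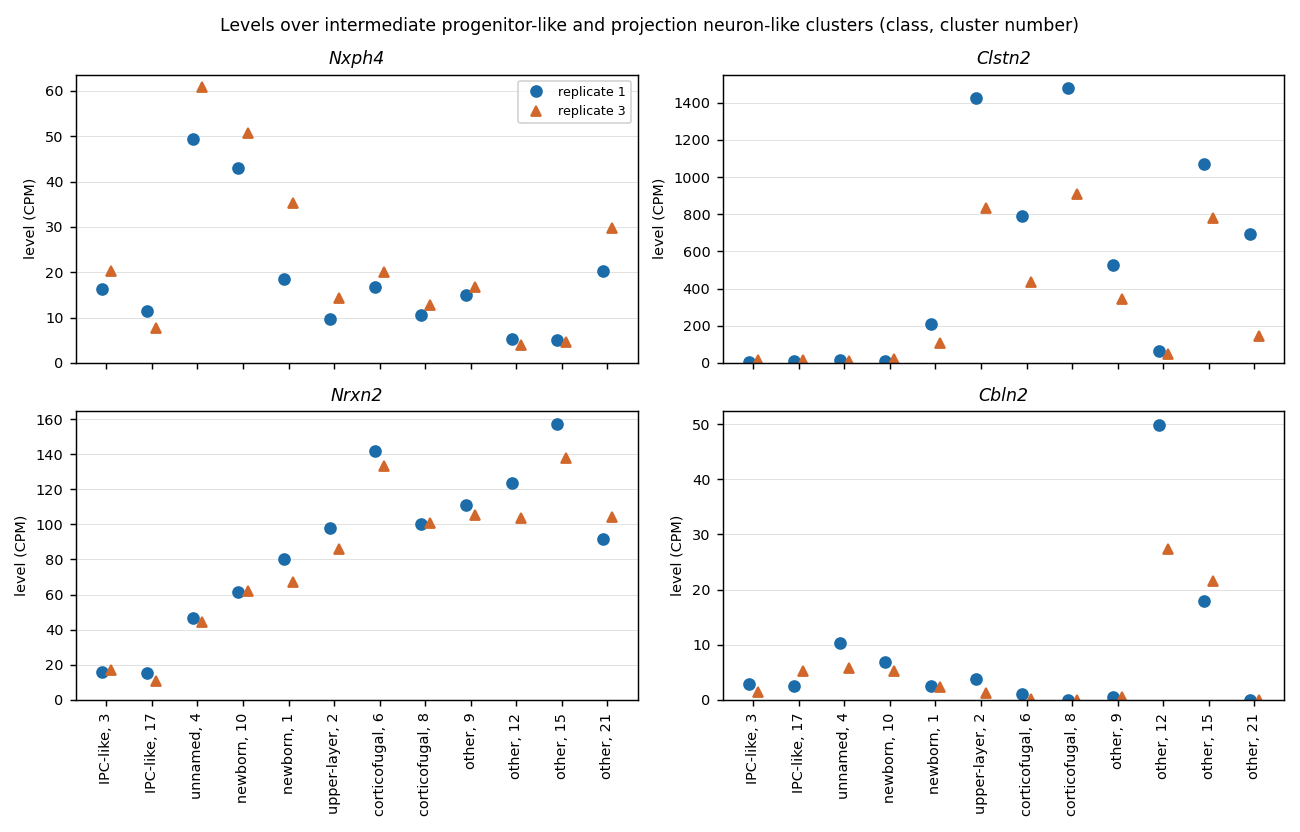
Levels in CPM of 4 genes over the IPC-like, unnamed and projection neuron-like clusters, with 1 point per replicate. *Nxph4* is highest in unnamed cluster 4 (49.5 and 60.8 CPM), *Clstn2* in cluster 8 in both replicates (1479 and 909.7 CPM), *Nrxn2* in cluster 15 (157 and 138 CPM) and *Cbln2* in cluster 12 (49.8 and 27.3 CPM).

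Newborn and corticofugal projection neuron-like cells were then compared. Of 7 genes tested (*Nxph2* and *Cbln4* were too low), 2 were higher and 3 lower in newborn cells, where 39.6% of all genes tested were called, 18.7% higher and 20.9% lower. *Nxph4*, at 26.8 and 40.8 CPM against 13.95 and 16.4 CPM, was higher (1.11 ± 0.25, adjusted p = 0.00835). *Clstn2* (-3.07 ± 0.42, adjusted p = 0.000623), *Cbln1* (-1.47 ± 0.25, adjusted p = 0.00178) and *Nrxn2* (-0.82 ± 0.12, adjusted p = 0.000955) were lower. *Nrxn2* held 74.1 and 65.5 CPM in newborn against 123 and 117 CPM in corticofugal cells. *Cbln2* was higher (2.77 ± 0.81, adjusted p = 0.0246, 1.32e-12 to 0.116 over the alternatives) from 26 and 33 against 5 and 1 UMIs, a call lost with doublets kept (adjusted p = 0.0712) and at resolution 0.6 (adjusted p = 0.116), and its value without replicate 1 was 3.43. *Nrxn3* did not differ beyond its spread (-0.03 ± 0.50, adjusted p = 0.972).

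Clusters showed where these levels changed. *Nrxn2* held 15.6 and 16.96 CPM in IPC-like cluster 3, 61.7 and 62.1 CPM in newborn cluster 10, 80.5 and 67.3 CPM in newborn cluster 1 and 142 and 133 CPM in corticofugal cluster 6. *Clstn2* held 10.96 and 20.3 CPM in cluster 10 but 209 and 107 CPM in cluster 1, so the newborn clusters did not overlap. Among the other projection neuron-like clusters, cluster 12 was lowest in *Clstn2*, at 64.1 and 45.2 CPM, and cluster 15 held 1073 and 779.5 CPM.

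Cajal-Retzius cells are the reelin-secreting neurons of the marginal zone, and all 9 of their markers were on in the cluster named for them. Against projection neuron-like cells 2 of the 9 genes were higher and 1 lower, where 26% of all genes tested were called, 14.9% higher and 11.1% lower. *Clstn2* was higher (1.69 ± 0.54, adjusted p = 0.0386, 1.19e-09 to 0.0878 over the alternatives), a call lost in DESeq2 (adjusted p = 0.0657), with doublets kept (adjusted p = 0.0619) and at resolution 1.5 (adjusted p = 0.0878). *Nrxn3* was higher (2.92 ± 0.54, adjusted p = 0.00179, 2.36e-23 to 0.115 over the alternatives), at 3.76 without replicate 1 and 1.90 without replicate 3, and lost its call with doublets kept (1.17, adjusted p = 0.115). For *Nrxn3*, 4 of 36 cells held 49 of 75 UMIs in replicate 1 and 10 of 77 cells held 182 of 236 UMIs in replicate 3. The 7 GABAergic markers had 3 and 2 UMIs there, with 2 and 1 of them above 0.

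*Cbln2*, at 0 UMIs in Cajal-Retzius-like cells, was at least 3.01-fold higher in the mean of projection neuron-like cells, with 3 counts over both Cajal-Retzius-like sums as the floor. The projection neuron-like sums were unequal (mean 5.74, SD 4.23 CPM, 271 and 93 UMIs), so the bound is for the mean and not for each replicate. Corticofugal cells, at a mean of 0.335 CPM, lay below that floor of 1.91 CPM. The gene was called lower in Cajal-Retzius-like cells (adjusted p = 0.0461, 4.85e-05 to 0.46 over the alternatives). This call was lost with library sizes in place of TMM factors (adjusted p = 0.0532), with the stricter cell filter (adjusted p = 0.0832), with the CGE and LGE sums left out (adjusted p = 0.0517) and with the unnamed cluster counted as IPC-like (adjusted p = 0.0555), and at resolution 1.5 the direction turned (1.0038, adjusted p = 0.46). *Nxph4* missed the threshold (0.93 ± 0.32, adjusted p = 0.0509, 0.0192 to 0.498 over the alternatives) and passed with the replicate as a block (0.90, adjusted p = 0.0192). Of all calls, 57.4% were higher in Cajal-Retzius-like cells, and 70.7% with library sizes, which moved the median of all genes by 0.16.

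MGE interneuron-like and Cajal-Retzius-like cells differed in 6 of the 9 genes, 4 higher and 2 lower in MGE interneuron-like cells, where 38% of all genes tested were called, 15.1% higher and 22.9% lower. Higher were *Nxph1* (8.78 ± 1.14, adjusted p = 0.000135), *Nrxn3* (6.88 ± 0.63, adjusted p = 1.20e-05), *Nrxn2* (1.0046 ± 0.24, adjusted p = 0.00625, 1.05e-06 to 0.0983 over the alternatives) and *Nxph2* (adjusted p = 4.85e-07). *Clstn2* (-5.29 ± 0.66, adjusted p = 0.000108) and *Nxph4* (-4.27 ± 0.58, adjusted p = 0.000179) were lower, at -4.26 and -5.45 without replicate 1 and at -6.31 and -3.18 without replicate 3. *Nrxn3* was at 6.35 without replicate 1 and 7.73 without replicate 3. The *Nrxn2* call was lost at resolution 1.5 (0.80, adjusted p = 0.0983).

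Other genes of the neurexin pathway, a list of 34 that includes receptors, ligands, scaffolds and splicing factors, were counted by the same test. In projection neuron-like against RGC-like cells 22 of 30 were higher and 3 lower (24.9% and 35.7% of all genes tested), with a median log2 fold change of 1.57 beside -0.15 over all genes tested. The higher genes included the postsynaptic receptor genes *Lrrtm4* (5.74 ± 0.40, adjusted p = 1.33e-07) and *Lrrtm3* (5.13 ± 0.34, adjusted p = 8.34e-08), the neurexophilin gene *Nxph3* (4.16 ± 0.30, adjusted p = 1.80e-07) and the splicing factor gene *Khdrbs2* (5.08 ± 0.37, adjusted p = 1.98e-07). The lower genes included *C1ql1*, encoding a secreted synaptic ligand, and the dystroglycan gene *Dag1*. In IPC-like against RGC-like cells 4 of 30 were higher and 9 lower (10.6% and 19% of all genes tested), with a median log2 fold change of -0.26 beside -0.12 over all genes tested. *Igsf21*, encoding a membrane partner of neurexins, had the largest rise (4.71 ± 0.23, adjusted p = 2.20e-07, 76.4 ± 4.29 against 2.65 ± 0.433 CPM (SD, n = 2)).

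In MGE interneuron-like against projection neuron-like cells 6 of 30 were higher and 10 lower (12.6% and 17.9% of all genes tested), with a median log2 fold change of -0.07 beside -0.06 over all genes tested. *Car10*, encoding a neurexin ligand (5.53 ± 0.70, adjusted p = 0.000132), and *Grid1*, encoding a delta-type glutamate receptor (2.52 ± 0.20, adjusted p = 3.15e-06, 294 ± 57.7 against 46.8 ± 8.22 CPM (SD, n = 2)), were higher, and *Nxph3* (-3.17 ± 0.47, adjusted p = 0.000455) and the neuroligin gene *Nlgn1* (-2.29 ± 0.45, adjusted p = 0.00269) lower. In Cajal-Retzius-like against projection neuron-like cells 7 of 30 were higher and 11 lower (14.9% and 11.1% of all genes tested), with a median log2 fold change of -0.44 beside 0.04 over all genes tested. *Car10* (8.54 ± 0.67, adjusted p = 3.33e-06), *C1ql1* (6.54 ± 0.44, adjusted p = 1.03e-06) and *Nxph3* (2.17 ± 0.25, adjusted p = 6.28e-05) were higher and *Nlgn1* (-4.24 ± 0.51, adjusted p = 7.55e-05) lower. In MGE interneuron-like against Cajal-Retzius-like cells 11 of 30 were higher and 9 lower (15.1% and 22.9% of all genes tested), with a median log2 fold change of 0.44 beside -0.09 over all genes tested.

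Between GABAergic classes, 4.93% (MGE against CGE) and 3.86% (MGE against LGE) of all genes tested were called. In MGE against CGE interneuron-like cells 0 of 30 were higher and 5 lower, with a median log2 fold change of -0.08 beside -0.03 over all genes tested, the lower genes including *Lrrtm3*, *Igsf21*, *Mdga1* and *Khdrbs3*. Against the LGE neuron-like sum 2 of 30 were higher and 4 lower, with a median log2 fold change of 0.19 beside 0.01 over all genes tested. In newborn against corticofugal cells 3 of 29 were higher and 17 lower (18.7% and 20.9% of all genes tested), with a median log2 fold change of -0.84 beside 0.01 over all genes tested. *Nxph3* had the largest fall (-5.45 ± 0.27, adjusted p = 3.31e-06, 1.10 ± 0.0250 against 57.1 ± 0.434 CPM (SD, n = 2)), while *Nxph4*, of the same family, was higher in newborn cells as given above.

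Likeness was measured by Pearson's r of log2(CPM + 1) over 29 sums, as a description, since sums share libraries. Projection neuron-like cells entered as newborn, upper-layer and corticofugal sums. The unnamed cluster, where *Nxph4* was highest, was left out. So were the other projection neuron-like cells, among them clusters 12 and 15, where *Cbln2* was highest. Among the 9 genes, *Nxph1* was most like *Nrxn3* (r = 0.82) and *Nxph2* (r = 0.80), and *Nxph4* ran against *Nrxn3* (r = -0.39). Of 11314 other genes, the closest were *Dlx6* (0.85), *Sox2ot* (0.84) and *4930555F03Rik* (0.84) for *Nrxn3* and *Tmem35a* (0.88), *Ago4* (0.88) and *Ggt7* (0.86) for *Nrxn2*. For *Nxph1* these were *Elfn1* (0.83), *Cntnap3* (0.82) and *Neto1* (0.81), for *Nxph2* *Gm31218* (0.87), *Cntnap3* (0.78) and *Ism1* (0.78) and for *Nxph4* *Fabp5* (0.82), *Cacna2d1* (0.74) and *Cygb* (0.71). For *Clstn2* they were *4921534H16Rik* (0.92), *Tubb4a* (0.86) and *Sgip1* (0.82). For *Cbln1* they were *Gm1043* (0.78), *B3galt2* (0.77) and *Ryr3* (0.76), for *Cbln2* *Scn1a* (0.74), *Cntnap5a* (0.68) and *Gm27008* (0.66) and for *Cbln4*, from few counts, *Gm16141* (0.82), *Gm45680* (0.81) and *Dclk3* (0.80).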

How the data were processed

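The authors deposited UMI counts per gene and barcode, per the labels from 10x Genomics 3' v3.1 chemistry, with Cell Ranger 7.0.0 and mm10 named in the submitters' processing notes. How cells were called, whether introns were counted and which annotation was used were not given in the sources used here. Here, barcodes were kept between 1500 and 60000 UMIs where mitochondrial genes gave under 10% of them. This left out 710 and 1387 barcodes, after which 304 (4.93%) and 629 (7.09%) barcodes with the highest Scrublet scores were removed as doublets, at an assumed rate of 0.8% per 1000 barcodes. Leiden clustering (scanpy 1.11.5, leidenalg 0.10.2, resolution 1.0) used 30 components of 2000 variable genes. Clusters were named from 140 markers of 19 classes. The 9 genes and the pathway list were kept out of the variable genes and the markers. They were not kept out of the doublet scores or the ranking of the 10 leading genes of a cluster, which entered the naming. Leading genes included *Nxph1*, *Nrxn3* and *Nxph2* in the MGE interneuron-like cluster, *Clstn2* in the upper-layer cluster and *Tafa1* and *Tafa2* in cluster 12. Class sums per replicate were tested with edgeR 4.0.16 (TMM, filterByExpr, prior count 2), with no block. All 9 genes are described, and those pathway genes that are named passed the threshold. Some results of the pathway list are not reported here. The genes and lists were chosen with earlier results of these data known.

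The libraries were not copies of each other (chi-square of 80.2 per gene, 21040 genes). Sums of 1 replicate come from the same library, so the replicate number pairs them. Deviations of the sums correlated between classes at r = -0.05 to 0.28 over 14024 genes, and between projection neuron-like subtypes at 0.21 to 0.32 over 13614. The test was tried on simulated counts of MGE interneuron-like against projection neuron-like cells (12837 genes), where it found 52.5% of log2 changes of 1 and 88.1% of log2 changes of 2. It also called 8 unchanged genes. The simulation gave all genes 1 dispersion, all sums independence and all classes equal means apart from the changed genes. Real counts differ in each of these, so the shares found do not describe recovery in them. Alternatives were DESeq2 1.42.0, library sizes only, no filter on low counts, a replicate block, doublets kept, a stricter cell filter (3000 UMIs, 5% mitochondrial), resolutions of 0.6 and 1.5, thinning to 1500 UMIs or none, and each replicate left out. Leaving out the CGE and LGE sums and assigning the unnamed cluster were added after the data were seen.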

Additional observations from a re-analysis of the deposited data

How the results depend on the processing

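Over the alternatives with both replicates, 2 called values turned their direction, *Nrxn3* between projection neuron-like and RGC-like cells with doublets kept and *Cbln2* between Cajal-Retzius-like and projection neuron-like cells at resolution 1.5. The cause was not tested. With 1 replicate left out, no called value changed sign, and uncalled log2 values that did were, without replicate 1, *Nxph1* 0.56 (projection neuron against RGC), *Nxph1* 1.05 and *Nxph2* 0.13 (IPC against RGC), *Nrxn2* -0.29 (Cajal-Retzius against projection neuron), *Nrxn3* -0.0778, *Nxph4* 2.41, *Cbln1* 3.81, *Cbln4* 2.41 and *Clstn2* 0.35 (MGE against CGE) and, without replicate 3, *Cbln4* -0.0245 (MGE against projection neuron), *Nrxn2* -0.0784 (IPC against RGC), *Cbln4* 0.24 (Cajal-Retzius against projection neuron), *Cbln4* -0.27 (MGE against Cajal-Retzius), *Nrxn3* 0.59 (newborn against corticofugal). The replicate block moved 4 values past the threshold, *Cbln4* (1.21, adjusted p = 0.049), *Nxph4* (0.90, adjusted p = 0.0192), *Cbln2* (-2.39, adjusted p = 0.0493) and *Nrxn2* (1.17, adjusted p = 0.0186), and changed no other call of the 9 genes. Values with 1 replicate left out carry no test, and the LGE neuron-like sum exists in replicate 1 alone. The planned subplate comparison was not run, as no cluster took that name, and MGE against CGE interneuron-like cells had no value at resolution 0.6. *Nxph2* and *Cbln4* had too few counts to be tested between newborn and corticofugal cells.

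For MGE interneuron-like against projection neuron-like, log2 values of the other sign were *Cbln4* -0.11 with the stricter cell filter. For projection neuron-like against RGC-like, genes of the 9 called lower were 2 with no filter on low counts and 0 with doublets kept, with the stricter cell filter, at resolution 0.6, at resolution 1.5 and without the CGE and LGE sums (reported 1), and log2 values of the other sign were *Nrxn3* 0.37 with doublets kept. For IPC-like against RGC-like, genes of the 9 called lower were 2 with no filter on low counts (reported 0), and pathway genes called higher were 8 with the unnamed cluster as IPC-like (reported 4). For Cajal-Retzius-like against projection neuron-like, genes of the 9 called lower were 0 with library sizes only, with the stricter cell filter, at resolution 1.5, without the CGE and LGE sums and with the unnamed cluster as IPC-like (reported 1), and genes of the 9 called higher were 1 in DESeq2 and 0 with doublets kept (reported 2), and pathway genes called lower were 17 with no filter on low counts and 7 at resolution 1.5 (reported 11), and log2 values of the other sign were *Nrxn2* -0.23 with no filter on low counts, -0.0489 with doublets kept, -0.0723 with the stricter cell filter, -0.0194 at resolution 0.6 and -0.14 without the CGE and LGE sums, *Nxph1* -0.32 with doublets kept, *Cbln1* 0.0996 at resolution 1.5, *Cbln2* 1.0038 at resolution 1.5, *Cbln4* 1.56 at resolution 1.5. For MGE interneuron-like against Cajal-Retzius-like, genes called were 3435 at resolution 1.5 (reported 5327), and pathway genes called higher were 2 at resolution 1.5 (reported 11), and log2 values of the other sign were *Cbln2* -2.55 at resolution 1.5, *Cbln4* -0.0192 with the stricter cell filter and -1.11 at resolution 1.5. For MGE interneuron-like against CGE interneuron-like, genes of the 9 called lower were 1 with library sizes only, with the replicate block and with the stricter cell filter and 2 with no filter on low counts (reported 0), and genes called were 1437 with no filter on low counts and 444 at resolution 1.5 (reported 691), and pathway genes called higher were 1 with no filter on low counts and with the unnamed cluster as IPC-like (reported 0), and pathway genes called lower were 10 with no filter on low counts, 2 with doublets kept and 1 at resolution 1.5 (reported 5), and genes of the 9 called higher were 1 with the stricter cell filter and at resolution 1.5 (reported 2), and log2 values of the other sign were *Nxph4* 0.54 at resolution 1.5, *Cbln1* 0.99 at resolution 1.5, *Cbln2* 0.22 at resolution 1.5. For MGE interneuron-like against LGE neuron-like, genes called were 1117 with no filter on low counts and 325 at resolution 1.5 (reported 541), and genes of the 9 called higher were 4 with no filter on low counts and 1 at resolution 1.5 (reported 2), and genes of the 9 called lower were 1 with no filter on low counts (reported 0), and pathway genes called higher were 5 with no filter on low counts and 0 at resolution 0.6 and at resolution 1.5 (reported 2), and pathway genes called lower were 1 with doublets kept and at resolution 1.5 and 2 with the stricter cell filter (reported 4), and log2 values of the other sign were *Cbln1* 0.0856 with doublets kept, *Cbln2* -2.53 at resolution 0.6. For newborn against corticofugal projection neuron-like, genes of the 9 called higher were 1 with doublets kept and at resolution 0.6 (reported 2), and log2 values of the other sign were *Nrxn3* 0.0079 with library sizes only, 0.56 with the stricter cell filter, 0.20 at resolution 0.6 and 0.97 at resolution 1.5. Mean shares of cells with a UMI that moved were *Nrxn2* in MGE interneuron-like cells 30.1% thinned to 1500 UMIs and 62.2% with no thinning (reported 45.02%), *Nxph1* in MGE interneuron-like cells 95.2% thinned to 1500 UMIs (reported 98.5%), *Nxph2* in MGE interneuron-like cells 30.6% thinned to 1500 UMIs (reported 47.4%), *Nxph4* in Cajal-Retzius-like cells 8.71% thinned to 1500 UMIs, 27.3% with no thinning and 6.05% at resolution 1.5 (reported 11.1%), *Cbln1* in corticofugal projection neuron-like cells 1.39% thinned to 1500 UMIs, 9.61% with no thinning, 2.30% with doublets kept, 2.73% with the stricter cell filter and 2.66% at resolution 1.5 (reported 3.02%), *Cbln2* in other projection neuron-like cells 9.43% with no thinning (reported 4.44%), *Cbln4* in CGE interneuron-like cells 0.613% with no thinning and 0.530% with doublets kept (reported 0.186%).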

Other observations

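Some of the genes were also found in non-neuronal classes, which entered no comparison. *Clstn2* held 1065 and 761 CPM in pericyte-like cells (39 and 45 cells), where 81.1% and 75.6% (unthinned 92.3% and 93.3%) of cells had a UMI after thinning, against 0% of endothelial-like cells in both replicates. Cortical hem or choroid plexus-like cells held 185 and 89.3 CPM of it. *Nxph4* held 40.7 and 26.1 CPM in meningeal-like and 19.4 and 24.3 CPM in pericyte-like cells. *Nrxn2* held 68.7 and 61.8 CPM in meningeal-like cells, above the RGC-like and below the MGE interneuron-like levels. These values overlapped those of newborn cells (mean 69.8, SD 6.10 CPM). The 7 GABAergic markers summed to 43.5 and 2.38 CPM in meningeal-like and 17.3 and 8.12 CPM in pericyte-like cells, and their part in these levels was not tested.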
